A study of Saccharomyces cerevisiae with 6 samples.

Results

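In budding yeast, the sugar signal that passes through the Ras GTPases and protein kinase A was followed at the level of its own mRNAs: 9 genes were chosen by name, RAS1, RAS2, GPA2, CYR1, PDE1, PDE2, BCY1, TPK2 and TPK3. All 9 were found among the 5028 genes that carried values, and all 9 passed the filter on low counts that left 5011 genes for testing. The choosing rule is a list of names and uses no measured value, but it was drawn up with earlier results of these data known.

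Ras proteins cycle between an active GTP-bound and an inactive GDP-bound form, and active Ras stimulates adenylate cyclase, which makes cyclic AMP. A second branch reaches the cyclase from a sugar receptor at the cell surface through a G protein alpha subunit, and phosphodiesterases break the cyclic AMP down again. Cyclic AMP binds the regulatory subunit of protein kinase A and sets its catalytic subunits free. In yeast growing on fermentable sugar the kinase is active and holds stress genes and glycogen storage down, and its activity falls when the sugar is lost.

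The cells were the haploid laboratory strain BY4741, labelled wild type and described in all 6 libraries by 1 genotype, with the usual auxotrophic markers. In the Sucrose group, 3 cultures were grown at 30 °C in synthetic complete medium with 2% sucrose to an OD600 of 0.45 and harvested straight from that medium. The study's methods give this medium as lacking tryptophan, which the labels do not say. In the NoSucrose group, 3 cultures grown in the same way were collected on a filter and moved to medium with 2% glycerol and 2% ethanol, carbon sources that must be respired, for 16 min. Filtration and transfer came with the change of carbon source, so the effects of handling and of sucrose loss cannot be told apart here, and no mock-shifted library was analysed. The study's methods describe the replicates as biological, and poly(A) RNA was sequenced in a strand-specific way.

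The libraries held from 25106494 to 33651822 estimated read counts each. Of the marker genes deleted in this strain, LEU2, URA3 and MET17 were listed at 0 in every library, while HIS3, whose deletion is partial, kept reads. The MATa-specific genes STE2, STE6, BAR1, MFA1 and MFA2 were present throughout. Expression is given as counts-per-million (CPM), scaled between libraries by the trimmed mean of M values (TMM), and is a share of a library and not an amount per cell. The test was edgeR's quasi-likelihood test over all 5011 genes, with p-values adjusted by Benjamini-Hochberg to a false discovery rate (FDR), and a gene was called when its FDR was below 0.05 and its fold change above 2. Fold changes are NoSucrose over Sucrose, as log2 with standard error (SE).

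Of the 9 genes, 4 were called increased (TPK2, GPA2, RAS2 and BCY1), against 12.7% of all genes tested. A single one, RAS1, was called decreased, against 6.03% of all genes. At the FDR alone 6 of the 9 were higher, where 42.2% of all genes were, and 3 were lower, where 39.8% were. The 3 libraries of each condition did not overlap for any of the 9 genes, which was also true of 84.8% of all genes, so lack of overlap does not set these genes apart. Their median log2 fold change was 0.85, beside 0.03 for all genes tested. With library size as the only scaling the median of all genes moved to 0.14, and the calls over all genes moved from 635 increased and 302 decreased to 733 and 201.

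**Figure D1:**
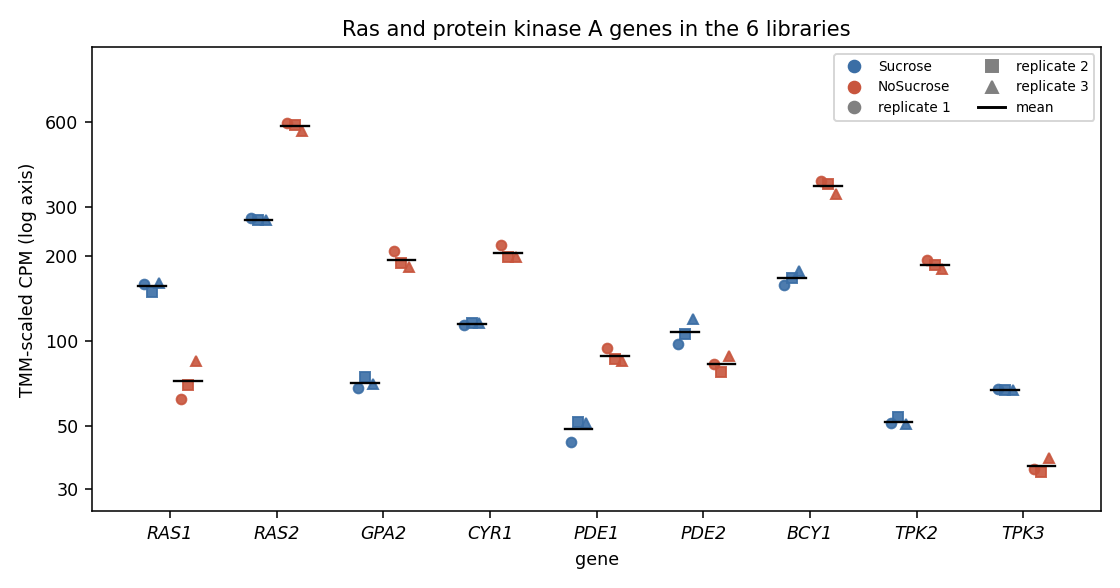
TMM-scaled CPM of each of the 9 genes on a log axis, with 1 point for each of the 3 Sucrose (blue) and 3 NoSucrose (red) libraries, a marker shape for each replicate and a line at the mean. The conditions are apart for every gene, with TPK2 between 50.8 and 53.9 in Sucrose and between 179.9 and 193.9 in NoSucrose, and PDE2 the least apart.

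The Ras GTPases moved in opposite directions. RAS1 (YOR101W, chromosome XV, 515244 to 516173, plus strand of build R64, a single coding exon) encodes one of the paired Ras GTPases, either of which can keep cells alive on glucose. Its mRNA stood at 159, 150.0 and 161 CPM in Sucrose replicates 1 to 3 and at 62.4, 70.3 and 85.0 CPM in NoSucrose replicates 1 to 3. The lowest Sucrose library lay well above the highest NoSucrose library, and the NoSucrose libraries were more scattered, with a coefficient of variation of 15.8% against 3.90%. RAS1 fell by 1.11 on the log2 scale (SE 0.10, FDR 2.32e-05), from 157 ± 6.12 to 72.6 ± 11.5 CPM (mean ± SD, n = 3). With library size as the only scaling its log2 fold change was -0.99, just short of the fold threshold, with an FDR of 4.28e-05.

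RAS2 (YNL098C, chromosome XIV, 439602 to 440570, minus strand, a single coding exon) encodes the other GTPase, which yeast needs to grow well on non-fermentable carbon. Its mRNA stood at 273, 268 and 268 CPM in the Sucrose libraries and at 593, 585 and 557 CPM in the NoSucrose libraries. The groups were far apart, and the Sucrose libraries differed from each other by a coefficient of variation of only 1.07%. RAS2 rose by 1.10 on the log2 scale (SE 0.05, FDR 4.72e-07).

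The balance of the pair therefore differed between the conditions. Per kilobase of coding sequence, the RAS2 to RAS1 ratio was 1.64, 1.72 and 1.60 in Sucrose and 9.12, 7.99 and 6.29 in NoSucrose. RAS2 made up 61.5% to 63.2% of the RAS mRNA in Sucrose and 86.3% to 90.1% in NoSucrose, with no test run on the ratio. The sum of both mRNAs, in CPM per kilobase, was 447 ± 8.17 in Sucrose and 675 ± 7.45 in NoSucrose (n = 3 each), higher by 1.51 times. The coding sequences were 66.1% identical over their aligned bases, and neither shared any stretch of 31 bases with the other or with another coding gene.

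GPA2 (YER020W, chromosome V, 195168 to 196517, plus strand, a single coding exon) encodes the G protein alpha subunit that carries the signal of the sugar receptor Gpr1. GPA2 mRNA was found at 68.5, 74.6 and 70.4 CPM in the Sucrose libraries and at 209, 189.7 and 184 CPM in the NoSucrose libraries. No library of either group came near the other group. GPA2 rose by 1.45 on the log2 scale (SE 0.06, FDR 4.94e-07), a fold of 2.73 that placed it at rank 385 of the 5011 genes ordered from the most increased. GPR1 itself, the receptor gene, was 86.9 ± 4.93 CPM in Sucrose and 103 ± 2.53 in NoSucrose, a log2 fold change of 0.24 (SE 0.05, FDR 0.00208) that did not reach the fold threshold.

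CYR1 (YJL005W, chromosome X, 425157 to 431237, plus strand, a single coding exon of 6081 bases) encodes adenylate cyclase, on which both branches act. In Sucrose its mRNA stood at 114, 116 and 116 CPM, and in NoSucrose at 219, 199.8 and 199 CPM. The Sucrose libraries lay close together and all were below the NoSucrose libraries. CYR1 rose by 0.84 on the log2 scale (SE 0.05, FDR 2.58e-06), a fold of 1.79 that stayed under the threshold for a call.

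The phosphodiesterase genes, like the RAS genes, moved apart. PDE1 (YGL248W, chromosome VII, 35653 to 36762, plus strand, a single coding exon) encodes the low-affinity enzyme, which acts at high cyclic AMP. Its mRNA was 44.1, 51.7 and 51.2 CPM in Sucrose and 94.7, 86.4 and 85.2 CPM in NoSucrose. All NoSucrose libraries were higher, and PDE1 rose by 0.85 on the log2 scale (SE 0.07, FDR 1.24e-05).

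PDE2 (YOR360C, chromosome XV, 1013241 to 1014821, minus strand, a single coding exon) encodes the high-affinity enzyme, which sets the basal cyclic AMP level. Its mRNA was 97.7, 106 and 119.9 CPM in Sucrose and 82.9, 77.9 and 88.7 CPM in NoSucrose. The highest NoSucrose library was close to the lowest Sucrose library, and PDE2 had the smallest change of the 9 genes. It fell by 0.38 on the log2 scale (SE 0.08, FDR 0.00283), and over the 13 alternative settings its FDR reached 0.0201 at most. Per kilobase, the PDE2 to PDE1 ratio was 1.56, 1.44 and 1.64 in Sucrose and 0.615, 0.633 and 0.731 in NoSucrose. PDE2 was thus the higher of the pair in every Sucrose library, and PDE1 in every NoSucrose library. The summed level of both was 112 ± 10.3 CPM per kilobase in Sucrose and 133 ± 5.34 in NoSucrose.

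The subunits of protein kinase A did not move together either. BCY1 (YIL033C, chromosome IX, 290419 to 291669, minus strand, a single coding exon) encodes the regulatory subunit, which inhibits the catalytic subunits until cyclic AMP binds. Its mRNA stood at 159, 168 and 178 CPM in Sucrose and at 371, 361 and 333 CPM in NoSucrose. The groups were well separated, and BCY1 rose by 1.08 on the log2 scale (SE 0.06, FDR 2.30e-06), a fold of 2.11 close to the threshold. Leaving out 1 library at a time kept the log2 change of BCY1 between 1.04 and 1.12.

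TPK2 (YPL203W, chromosome XVI, 166256 to 167398, plus strand, a single coding exon) encodes a catalytic subunit that is known to promote filamentous growth. TPK2 mRNA was found at 51.2, 53.9 and 50.8 CPM in Sucrose and at 194, 186 and 179.9 CPM in NoSucrose. TPK2 had the largest rise of the 9 genes, 1.84 on the log2 scale (SE 0.05, FDR 8.37e-08), a fold of 3.59 at rank 265 in the same order. The mean went from 52.0 ± 1.70 to 187 ± 7.02 CPM (n = 3 each).

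TPK3 (YKL166C, chromosome XI, 134509 to 135705, minus strand, a single coding exon) encodes another catalytic subunit, linked to mitochondrial function. Its mRNA stood at 68.1, 67.4 and 67.1 CPM in Sucrose and at 35.3, 34.3 and 38.7 CPM in NoSucrose. The Sucrose libraries were almost level, with a coefficient of variation of 0.74%, and all lay above the NoSucrose libraries. TPK3 fell by 0.90 on the log2 scale (SE 0.05, FDR 1.82e-06), and its 1.87-fold decrease was not called.

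Per kilobase, the TPK2 to TPK3 ratio was 0.788, 0.838 and 0.794 in Sucrose and 5.75, 5.67 and 4.87 in NoSucrose. Of the mRNA of these catalytic subunits, TPK2 made up 44.1% to 45.6% in Sucrose and 83.0% to 85.2% in NoSucrose. The coding sequences were 66.5% identical over their aligned bases and, as for every one of the 9 genes, held no stretch of 31 bases found in another coding gene.

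**Figure D2:**
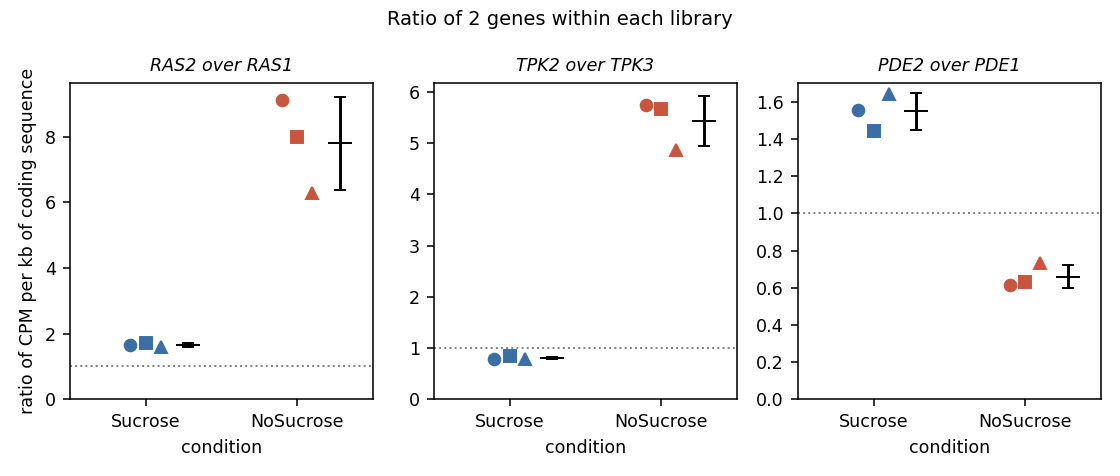
Ratio of RAS2 to RAS1, TPK2 to TPK3 and PDE2 to PDE1 mRNA, from CPM per kilobase of coding sequence, in 3 panels with linear axes from 0, with 1 point for each of the 3 Sucrose and 3 NoSucrose libraries, the mean with its SD beside them and a dotted line at a ratio of 1. The RAS ratio went from 1.60 to 1.72 up to 6.29 to 9.12, the TPK ratio from under 1 to 4.87 or more, and the PDE ratio from 1.44 or more to under 1.

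The order of the levels within the pathway, per kilobase of coding sequence, changed with the carbon source. In Sucrose the order was RAS2 (278 CPM per kilobase), RAS1 (169), BCY1 (134), PDE2 (68.3), TPK3 (56.4), GPA2 (52.7), TPK2 (45.5), PDE1 (44.2) and CYR1 (19.0). Of these neighbours, only TPK2 and PDE1 overlapped in their libraries. In NoSucrose the order was RAS2 (597), BCY1 (284), TPK2 (163), GPA2 (144), PDE1 (80.0), RAS1 (78.0), PDE2 (52.6), CYR1 (33.9) and TPK3 (30.2), with overlap only between PDE1 and RAS1. RAS2 led in both conditions, RAS1 fell behind BCY1, TPK2, GPA2 and PDE1 in mean level, and TPK3 became the lowest. Among the genes tested that have an annotated coding length, TPK2 moved from percentile 47.1 to 81.7 of the level per kilobase. TPK3 moved from 54.5 to 26.5, while CYR1 stayed low, at 17.9 and 30.6.

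Of the NoSucrose libraries, replicate 3 lay nearest to the Sucrose mean for all 9 genes. The same library was also the nearest for 62.0% of the 4107 genes past the FDR. With NoSucrose replicate 3 left out, the 9 genes gave the same 4 increased and 1 decreased calls.

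**Figure D3:**
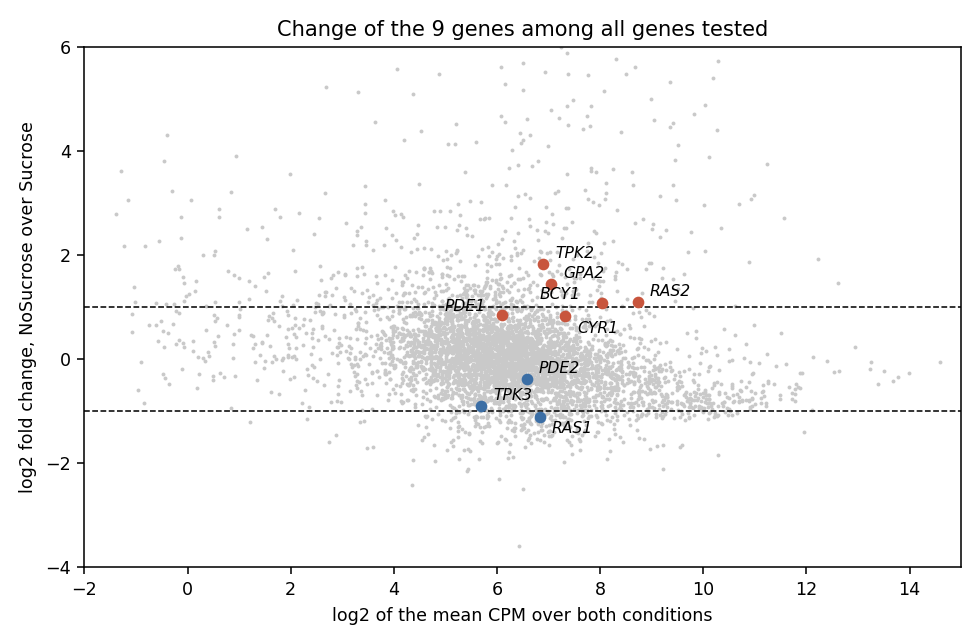
Log2 fold change, NoSucrose over Sucrose, against the log2 of the mean CPM for all genes tested (grey) with the 9 genes marked, red where higher and blue where lower in NoSucrose; dashed lines mark a fold of 2, and 13 genes lie outside the axes. TPK2 and GPA2 lie above the bulk of genes of their level, RAS1 lies below it, and PDE2 lies within it.

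The letters before the starts of these genes were searched for short motifs, and the sequences shown are those that hold a match to the stress response element (STRE, AGGGG), the letters bound by the stress factors Msn2 and Msn4, or to the PAC core (GATGAG), found before many ribosome biogenesis genes. In the window from 250 bases before to 50 bases after the start codon, on both strands, STRE letters occurred before 3 of the 9 genes (CYR1, PDE1 and GPA2) and in 21.6% of 6020 such windows. The PAC core occurred before RAS1 alone, and in 20.3% of windows. The RRPE core (AAAAATTT, in 14.1% of windows) and the Mig1 cores (GCGGGG and GTGGGG, in 6.79%) had no match in any of the 9. In a window of 500 bases before the start, added after the data had been seen, STRE letters occurred before 6 of the 9 genes (TPK2, RAS2 and PDE2 in addition) and in 34.0% of 6019 windows, and BCY1, TPK3 and RAS1 had none. The wider window of RAS1 also held a Mig1 core, found in 13.5% of windows of that length. In the shorter window the 3 genes with STRE letters rose. Of the genes without them there, TPK2, RAS2 and BCY1 rose and RAS1, TPK3 and PDE2 fell. In the wider window, of the 6 genes with STRE letters 5 rose and PDE2 fell, and of the 3 without them BCY1 rose. A link between these letters and the direction of change was not tested. The fragments below are reference sequence of build R64, 5′ to 3′ on the strand of the gene, in lower case with the matched letters, or their reverse complement, in capitals.
GPA2, chrV:195022-195051, plus strand, 134 bases before the start: gccttagactgaAGGGGtggaaaaacttta
GPA2, chrV:194913-194942, plus strand, 243 bases before the start: tcatgttcaagcCCCCTcagctgcgcccaa
CYR1, chrX:424934-424963, plus strand, 211 bases before the start: tggaaggaaagcAGGGGggacttaccataa
PDE1, chrVII:35615-35644, plus strand, 26 bases before the start: cttcttcttcatCCCCTtttttaccaatat
TPK2, chrXVI:165964-165993, plus strand, 280 bases before the start: ggaaggaaattaAGGGGgagcggagcacct
RAS2, chrXIV:440992-441021, minus strand, 439 bases before the start: ctgaCCCCTttgCCCCTggcctcgCCCCTg
RAS2, chrXIV:441022-441051, minus strand, 469 bases before the start: attcacctcgccCCCCTtggaggttcctgc
RAS2, chrXIV:440871-440900, minus strand, 318 bases before the start: aaagctggaataAGGGGatctgggaaaacg
PDE2, chrXV:1015229-1015258, minus strand, 425 bases before the start: tttgtaatctgcAGGGGtcgctctcctcgt
RAS1 (PAC core), chrXV:514986-515015, plus strand, 246 bases before the start: aaactttttcaaCTCATCgcaagattatga
RAS2 had 5 matches in its window, 3 of them within the first fragment shown and the one nearest to the start inside the neighbouring gene YNL097C-B. A match is a description of the sequence and not a bound site.

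Of the other genes that act on Ras, some were called increased. Of 5 regulators of the GTP-bound state, 3 were called increased and none decreased, beside 12.7% and 6.03% of all genes tested. With so small a share decreased over all genes, the lack of decreased calls does not set these 5 apart. Their median log2 fold change was 1.42. TFS1, whose product inhibits the Ras GTPase activator Ira2, stood at 33.5, 40.2 and 40.8 CPM in Sucrose and at 331, 281 and 251 in NoSucrose, a log2 rise of 2.91 (SE 0.12, FDR 4.53e-07). IRA2, which switches Ras off, stood at 131, 125 and 119 CPM and at 486, 446 and 290, with NoSucrose replicate 3 well below the other two, and rose by 1.70 (SE 0.18, FDR 4.40e-05). SDC25, listed as a Ras exchange factor gene, rose by 1.42 (SE 0.05, FDR 1.96e-07) from a low level of 22.8 to 24.1 CPM. Whether its mRNA gives a working protein in this strain was not examined. The main exchange factor gene CDC25 (log2 fold change 0.03, FDR 0.578) and IRA1 (0.10, FDR 0.0563) did not pass the test.

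The genes that process and place Ras at the membrane changed little. None of 6 was called, beside 12.7% of all genes tested called increased and 6.03% decreased, and their median log2 fold change was 0.08. ERF2, of the Ras palmitoyltransferase, was higher by 0.47 (FDR 0.000313) and RCE1, a protease of prenylated proteins, by 0.29 (FDR 0.0114), while STE14, the methyltransferase that follows, fell by 0.45 (FDR 0.000998). RAM1, RAM2 and SHR5 did not pass the test.

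In the receptor branch around GPA2, none of 6 genes was called, beside 12.7% of all genes tested called increased and 6.03% decreased. At these shares, a lack of calls among 6 genes does not set the branch apart. Their median log2 fold change was 0.19. GPB2, encoding a kelch protein that binds Gpa2, stood at 99.1, 97.9 and 98.1 CPM in Sucrose and at 142, 141 and 143 in NoSucrose, a rise of 0.53 (SE 0.03, FDR 3.68e-06). PLC1, for phospholipase C, rose by 0.24 (FDR 0.00271), and ASC1, which encodes a ribosomal protein that also acts as the G beta partner of Gpa2, fell by 0.53 (FDR 3.12e-05). RGS2, which turns Gpa2 off, and GPB1 did not pass the test. GPA2 was thus the one gene of its branch past the fold threshold, and its difference from the others was not tested.

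Of the partners of the cyclase and the kinase, SRV2, for the cyclase-associated protein, fell by 0.16 (FDR 0.00993) and ZDS2, linked to the location of Bcy1, fell by 0.22 (FDR 0.00113). ZDS1 did not pass the test, and none of these 3 was called, beside 12.7% of all genes tested called increased and 6.03% decreased.

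Listed kinases and transcription factors that act downstream of protein kinase A or beside it went both ways. Of 10 tested, 4 were called increased and 1 decreased, beside 12.7% and 6.03% of all genes tested. Their median log2 fold change was 0.34. YAK1, a kinase gene that opposes protein kinase A in growth control, stood at 71.6, 82.3 and 75.2 CPM in Sucrose and at 433, 398 and 403 in NoSucrose, a rise of 2.43 (SE 0.07, FDR 1.04e-07). GIS1, a transcription factor gene of the post-diauxic phase, rose by 2.06 (FDR 1.57e-07), PHD1, of filamentous growth, by 1.56 (FDR 1.05e-07), and ADR1, an activator of ethanol use, by 1.27 (FDR 1.45e-06). SOK2, which acts in the pathway as a regulator of filamentous growth, stood at 125, 121 and 116 CPM and at 59.6, 57.7 and 63.4, a decrease of 1.00 (SE 0.05, FDR 9.48e-07) that lay on the fold threshold and lost its call in 5 of 13 alternative settings. SCH9, a kinase gene with roles that overlap those of protein kinase A, fell by 0.78 (FDR 1.37e-06) and SFL1, a repressor gene, also by 0.78 (FDR 2.47e-06). RIM15 (0.27, FDR 0.00587), MSN2 (0.22, FDR 0.00206) and MSN4 (0.41, FDR 0.00039) rose by small amounts.

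Protein kinase A helps to keep Msn2 and Msn4 out of the nucleus. Among 21 genes known as their targets, 19 were called increased and none decreased, against 12.7% and 6.03% of all genes tested. Their median log2 fold change was 4.13. This list was drawn up with earlier results of these data known, and the cause of the rises was not tested. CTT1, cytosolic catalase, went from 14.0 ± 0.850 to 318 ± 34.7 CPM (n = 3), a rise of 4.50 (SE 0.10, FDR 5.25e-08). The trehalose and glycogen genes TPS1, TPS2, TSL1, NTH1, GSY2, GPH1, PGM2 and GAC1 rose by between 1.50 (NTH1) and 5.89 (GAC1, a glycogen phosphatase subunit). The heat shock genes HSP12, HSP26, HSP42, HSP104 and SSA4 rose by between 3.75 (HSP104) and 5.42 (HSP42). For each of them replicate 3 was the lowest NoSucrose library, as it was for every other gene of this list except CTT1, ALD3 and SOD2. SSA4 varied widely, at 2341, 2147 and 732 CPM in NoSucrose replicates 1 to 3 (SE of its log2 fold change 0.43). The ubiquitin gene UBI4 rose by 1.74, DDR2 by 4.16 and ALD3 by 4.88. HXK1 and GLK1, of glucose phosphorylation, rose by 2.71 and 2.99. The exceptions were SSA3 (0.52, FDR 0.00256) and SOD2 (0.01, FDR 0.878). SSA3 and SSA4 are HSP70 genes, and neither shared a stretch of 31 bases with another coding gene.

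**Figure D4:**
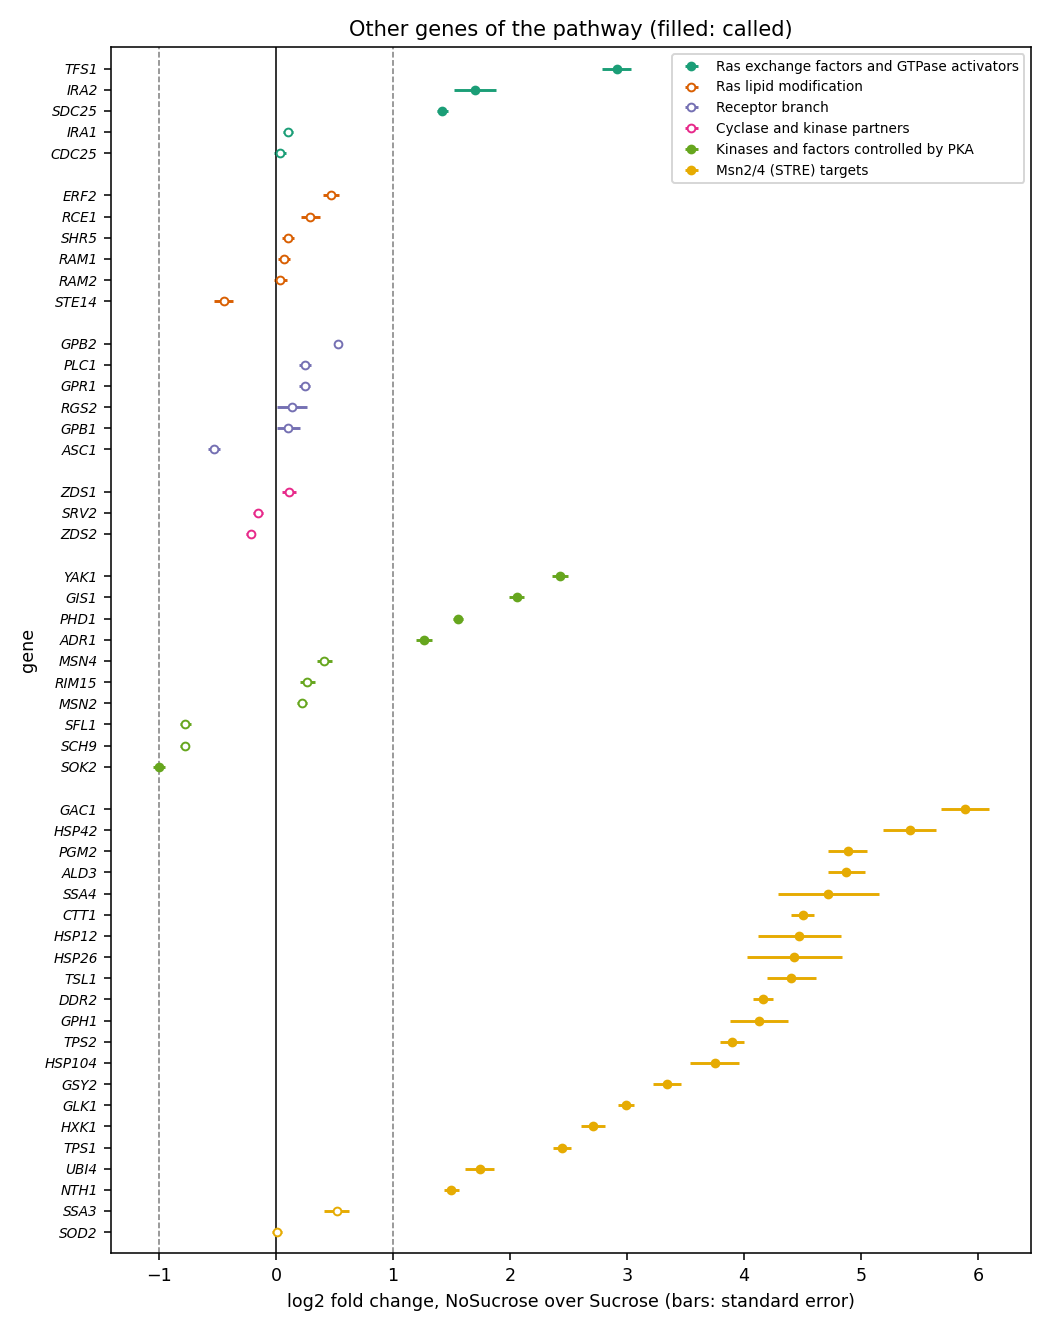
Log2 fold change, NoSucrose over Sucrose, of every gene tested in the 6 related lists, 1 row a gene and 1 colour a list, with bars for the SE, filled points for called genes and dashed lines at a fold of 2. The called Msn2/4 target genes lie between 1.50 and 5.89, while the lists of Ras processing, of the receptor branch and of cyclase and kinase partners lie within the dashed lines.

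The lists were read by their counts and medians, without a set test. In the lists of Ras processing, the receptor branch and the partners, edgeR called 0 genes, and DESeq2 also called 0. In these lists 3 of 6, 4 of 6 and 2 of 3 genes had an unadjusted edgeR p under 0.05. Of all 5011 genes tested, 2139 were higher and 2016 lower at that p, so such p-values do not set these lists apart. Among the Ras regulators and the Msn2/4 targets, no gene was lower even at an unadjusted p under 0.05, and DESeq2 called 0 decreased. In the 5 lists other than the Msn2/4 targets, 30 genes were tested. Of these, 7 were called increased and 1 decreased, beside 12.7% and 6.03% of all genes tested. At the FDR alone 15 were higher and 7 lower, beside 42.2% and 39.8% of all genes. Their median log2 fold change was 0.18. The median of the 9 genes, 0.85, was higher, and the difference between the groups of genes was not tested.

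For each of the 9 genes the most similar profile over the 6 libraries was sought among all genes tested, by the root mean square difference of the log2 CPM centred on its mean. TPK2 was closest to RFX1 (a difference of 0.0439) and GPA2 to NDJ1 (0.0308). BCY1 was closest to CBP4 (0.0184), RAS2 to LMO1 (0.0246), CYR1 to MSK1 (0.0180) and PDE1 to SIA1 (0.0266). Of the falling genes, RAS1 was closest to GAR1 (0.0270), TPK3 to GRS1 (0.0311) and PDE2 to MRPL51 (0.0367). Within a difference of 0.1 there were from 24 genes, for TPK2, to 291 genes, for TPK3. With only 2 conditions, such a profile is largely the log2 fold change itself, as with TPK2 at 1.84 and RFX1 at 1.83. TPK2 also had the largest change of the 9 genes, so its low number of neighbours does not show a profile of its own.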

How the data were processed

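RNA was sequenced from 3 Sucrose and 3 NoSucrose cultures. The authors estimated counts per gene with Salmon on build R64, and the deposited tables hold these estimated counts, unfiltered and filtered for low values, as the labels name Salmon and edgeR. In the filtered table names were displaced: 6 of 5028 rows stood beside their own name, so each row took the name of the only gene whose set of 6 values, to 3 decimals, was identical in the unfiltered table, and the headers of the filtered table were kept. Estimated counts were rounded and tested with edgeR 4.0.16 in R 4.3.3 (filterByExpr with min.count 15 and min.total.count 20, TMM, estimateDisp, glmQLFit and glmQLFTest on condition). The functions are those of the study's methods, but the study fitted these libraries together with earlier glucose libraries, gave its filter in CPM and mentions no rounding. Other scalings, no filter, unrounded counts, DESeq2 1.42.0, a replicate block and leaving out each library were tried. The fit was tested on simulated data. The members and lists were chosen with earlier results of these data known. Named genes are the 9 members, the called genes of the lists, the other genes of the first 5 lists past the FDR, and each member's closest profile. The other list genes named, CDC25, IRA1, RAM1, RAM2, SHR5, RGS2, GPB1, ZDS1, SSA3 and SOD2, fall outside that rule and were added after their values were seen, to account for every gene not called. Protein identity and the ratio of BCY1 to the catalytic subunit genes were planned and not made, and coding sequences were aligned instead. Of the lists, FLO8 was not analysed here, and 1 further gene is not reported here. No sample's column was left unmatched.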

Additional observations from a re-analysis of the deposited data

How the results depend on the processing

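The 9 members kept their direction under all 13 alternatives, with 4 called increased in each. The decreased count was 1 in all but library size as the only scaling, where it was 0 because RAS1 stood at -0.99 on the log2 scale. With 1 replicate left out at a time, 600 to 668 genes were called increased and 253 to 352 decreased, and the members gave 4 and 1 each time. With library size alone 201 genes were called decreased, against 302. In the list of kinases and transcription factors the 1 decreased gene, SOK2, gave 0 with library size alone, with upper quartile factors and without Sucrose replicate 1, NoSucrose replicate 1 or NoSucrose replicate 2. With the replicate block 634 genes were called increased and 299 decreased, and no member's call changed. Deviations of same-numbered libraries correlated at -0.137, -0.00221 and 0.0407. Those of differently numbered libraries correlated at between -0.327 and 0.27. The same-numbered values lay within that range, so no shared effect of the replicate number was seen. With 3 libraries a condition, these values cannot show whether same-numbered cultures were grown or prepared together. The 16 min time point and 3 cultures a condition limit what these values cover, mRNA level says nothing of protein or cyclic AMP, and shares of a library carry no information on RNA per cell.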

Other observations

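The MATa-specific genes, which are in none of the pathway lists, were all lower in NoSucrose. Of these, 5 of 5 passed the FDR, where 39.8% of all genes tested were lower. Their log2 fold changes lay between -1.09 and -0.59, with a median of -0.65. STE2, for the alpha-factor receptor, was the one called decreased, against 6.03% of all genes tested. The cause of these decreases was not tested. STE3, the receptor gene of the other mating type, stood at 7.13 to 9.22 CPM over the 6 libraries and did not pass the test (log2 fold change 0.13, FDR 0.311).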
